A study of Citrullus lanatus with 30 samples.

Results

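Long loci of the watermelon genome were described in RNA-seq profiles of watermelon fruit (Citrullus lanatus, cultivar 97103). A locus counted as long where its start and end, as listed in the deposited files, spanned 15000 bp or more, and 575 of 22596 loci (2.54%) did. They were set beside the 12804 loci of 1000 to 5000 bp. The choice used length only and no expression value. The loci carry no gene names in the files, so they are given by position on the sequences WM97pbV1_Chr01 to WM97pbV1_Chr11, written here as chr1 to chr11. What each locus encodes, and where its exons, introns and UTRs lie, was not analysed here, and no sequence is shown because no genome was used.

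Rind of fruit of 30 days after pollination (DAP) was labelled R2_RF and R4_RF, and rind of 20 DAP R4_CT, with 2 libraries each. Flesh of 20 DAP treated with 5-azacytidine (labelled 5_Aza, spelt 5-zazcytidine in the treatment label) and its control, labelled Mock, had 3 libraries each. Untreated flesh was sampled at 6 stages with 3 libraries each. PD is flesh of 0 DAP and AP of 1 DAP, SW and BW were taken at 5 and 10 DAP, and CT and RF at 20 and 30 DAP. Stage flesh and rind carry the cultivar label 97103, Mock carries only the genotype label Wild-type, and 5_Aza carries neither. No dose or treatment time is labelled. The labels do not say what R2 and R4 stand for and name the tissue of the rind libraries both rind and flesh. They are called rind here by their source label. In bulk tissue, fewer cells of a type and less RNA per cell cannot be told apart.

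In plant genomes a gene usually becomes long through its introns, which often hold transposable elements. Such intronic elements tend to carry DNA methylation, and in Arabidopsis proteins such as IBM2 and EDM2 are needed for full-length transcription through them. 5-Azacytidine is an inhibitor of DNA methyltransferases, the enzymes that put this mark on DNA. In broad terms, genes with housekeeping roles tend to be expressed in many tissues, while very high and tissue-restricted levels in fruit are typical of storage, cell wall and defence genes. FPKM, the unit used throughout, is the number of fragments per kilobase of transcript, scaled to the mapped fragments of the library. It divides by a transcript length that the authors chose and that the files do not list, and a locus span also counts introns.

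The summed FPKM of a library ranged from 762714 to 886495, and between 14199 and 16190 of the loci were at 1 FPKM or more. The deposited values do not tell the depth of a library, which leaves counting error without an interval. At 1 DAP only AP replicate 3 could be assigned to loci, so that stage has n = 1 and no SD. The correlation between replicates (log2 scale) was 0.993 to 0.997. The labels do not say that replicates came from separate fruits, so p-values measure only the spread between libraries, which may be technical. In every range of levels compared, replicates varied little at long loci: between 10 and 20 FPKM the median coefficient of variation lay between 2.84% and 4.92% over the groups, against 4.55% to 6.78% at loci of 1000 to 5000 bp.

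Long loci made up 17.9% of the summed length of all loci, with a median of 20753 bp and a maximum of 96889 bp. Of them, 255 were shorter than 20000 bp, 187 had 20000 bp or more but under 30000, 104 had 30000 bp or more but under 50000, and 29 reached 50000 bp. All lay on the 11 chromosomes, none overlapped another locus, and their share of a chromosome's loci ran from 1.46% on chromosome 2 to 4.28% on chromosome 4. Long loci had a median of 34 other loci within 250 kb, against 52 around loci of 1000 to 5000 bp. Fewer than 20 such neighbours were found for 34.8% of long loci and 12.0% of loci of 1000 to 5000 bp, and for 72.4% of the 29 longest. The nearest other locus was 3807 bp away in the median for long loci and 2105 bp for loci of 1000 to 5000 bp.

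Long loci sat at a moderate level in every group. Their median level was 12.9 FPKM in R2_RF, 13.4 in R4_RF and 12.7 in R4_CT rind, 14.1 in 5_Aza and 13.2 in Mock flesh. Along flesh development it was 12.4 FPKM at PD, 9.94 at AP (n = 1), 14.9 at SW, 14.2 at BW, 12.5 at CT and 14.6 at RF. The medians of single libraries within a group stayed close, from 12.1 to 13.3 FPKM in the widest group, R4_CT. At loci of 1000 to 5000 bp the median level was 9.24 FPKM at PD, 9.14 at AP, 8.80 at SW, 7.0 at BW, 5.25 at CT and 5.28 at RF, and 6.75 to 7.97 FPKM in Mock, 5_Aza and rind. The median of long loci thus stayed within 9.94 to 14.9 FPKM over the stages, while that of the shorter class was lowest in the 2 oldest flesh stages. Loci of 10000 bp to under 15000 bp had medians of 14.4 FPKM at PD, 14.6 at CT and 15.8 at RF, each above that of long loci.

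The difference between the class medians, long loci minus loci of 1000 to 5000 bp on the log2(FPKM + 1) scale, was 0.39 ± 0.02 at PD, 0.69 ± 0.01 at SW, 0.92 ± 0.01 at BW, 1.12 ± 0.05 at CT and 1.30 ± 0.01 at RF (SD, n = 3 libraries each). It was 0.11 at AP (n = 1), 0.78 ± 0.02 in 5_Aza and 0.90 ± 0.02 in Mock flesh. In rind it was 0.81 ± 0.04 in R2_RF, 0.82 ± 0.04 in R4_RF and 0.61 ± 0.02 in R4_CT (SD, n = 2 each). Long loci had the higher median in each of the 28 libraries. Loci that reach 1 FPKM nowhere are more frequent in the shorter class, and among loci at 1 FPKM or more in at least 1 library the difference was -0.01 at PD, -0.33 at AP, 0.27 at SW, 0.42 at BW, 0.54 at CT and 0.70 at RF. In that subset long loci therefore had no higher median than the shorter class at PD and AP. No test was made of these differences, because the loci of a library share it and are not replicates.

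**Figure D1:**
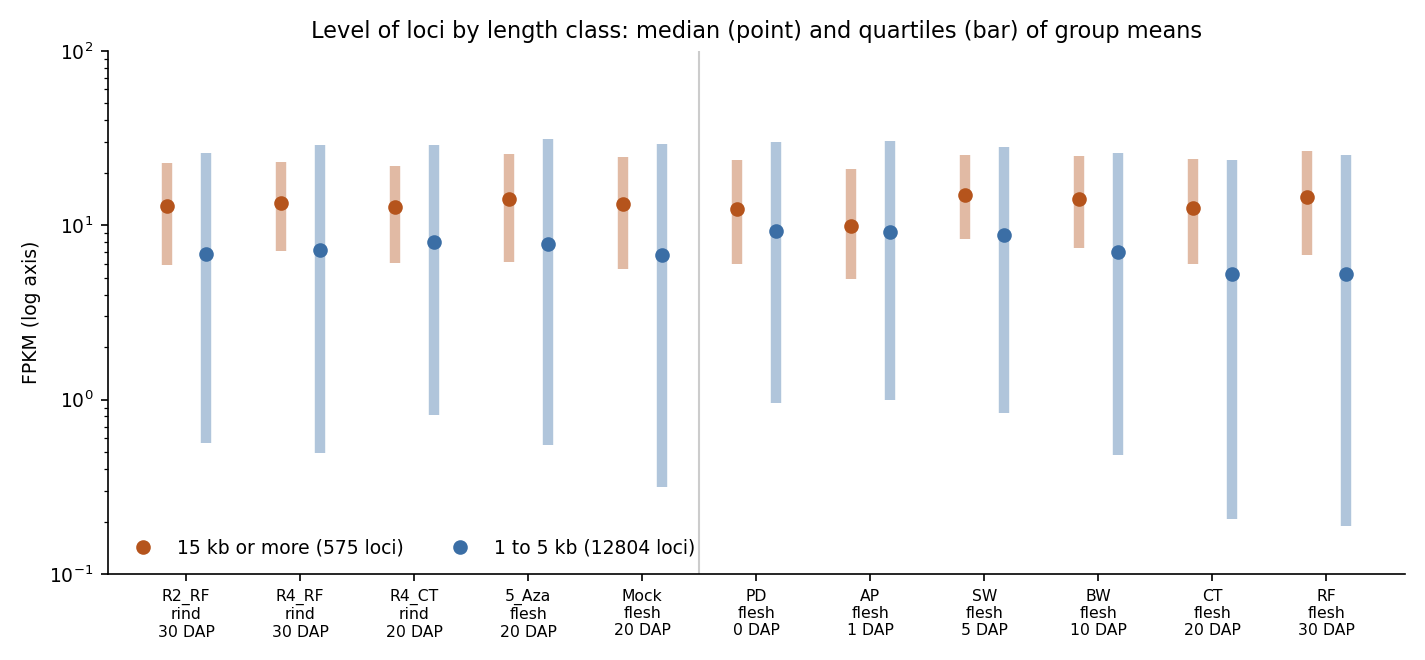
Level in FPKM (log axis) of the 575 long loci (brown) and the 12804 loci of 1000 to 5000 bp (blue) in each group, with rind, 5_Aza and Mock left of the line and the flesh stages right of it. Points are medians over loci of the group means and bars run from the first to the third quartile; the medians of long loci lie between 9.94 and 14.9 FPKM and their bars are shorter at the low end.

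The spread of levels was narrower among long loci. In RF flesh 10% of loci lay below 1.23 FPKM and 10% above 42.7 FPKM at long loci, against 0 and 77.8 FPKM at loci of 1000 to 5000 bp. No long locus reached 1000 FPKM in any group. Of the loci with a value in every group, 150 of 12773 loci of 1000 to 5000 bp did in at least 1. So did 4 of 717 loci of 10000 bp to under 15000 bp and 254 of all 22531 loci. Long loci held 1.03% to 1.5% of the summed FPKM of a group, and loci of 1000 to 5000 bp 55.7% to 63.6%. Among the long loci themselves, length and level had little in common: Spearman's rho across loci lay between -0.10 at AP and 0.02 at RF, given as a description because these loci share their library.

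The 5 long loci with the highest mean over the groups were chr8:2247689-2268380, chr4:9214602-9236839, chr9:4935622-4953012, chr9:9497298-9513722 and chr6:29375734-29392682. The locus on chromosome 8 (20692 bp) had 28.8, 28.8 and 28.4 FPKM at PD, 25.3 at AP, 53.2, 55.0 and 53.7 at SW, 142.3, 141 and 140.8 at BW, 558, 535 and 557 at CT and 544, 542 and 522 at RF. It was higher at each stage from SW to CT with no overlap of replicates, and CT and RF overlapped (RF against CT log2 fold change -0.04 ± 0.03 (SE), limma adjusted p = 0.27). In rind it stood at 16.4 and 17.8 FPKM in R2_RF, 339.5 and 364 in R4_RF and 163 and 180.3 in R4_CT, so the rind groups of 30 DAP stood far apart. It fell to 304, 317 and 318 FPKM in 5_Aza, against 424, 433 and 435 in Mock (log2 fold change -0.46 ± 0.03 (SE), limma adjusted p = 9e-07), with no overlap. The locus on chromosome 4 (22238 bp) had 365 and 382 FPKM in R2_RF, 401 and 415 in R4_RF and 336 and 384 in R4_CT rind, against 146, 159 and 149 FPKM in Mock flesh. R4_CT rose against Mock by 1.24 ± 0.06 (log2, SE; limma adjusted p = 1.6e-10), with every rind library above every Mock library. Flesh stages of that locus lay between 92.3 FPKM at BW and 183.7 at RF.

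The other 3 of the highest loci had narrower ranges. chr9:4935622-4953012 ranged from 73.9 FPKM at PD to 189.8 in R2_RF over the group means. chr9:9497298-9513722 ranged from 64.7 FPKM at SW to 165.6 in Mock. chr6:29375734-29392682 ranged from 74.7 FPKM at CT to 156 at AP, where it rests on 1 library. The last of these lies 1 bp from its neighbour, so reads could be split between them, and the counting rule is not given in the sources used here.

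Most long loci were expressed everywhere. Of the 574 with a value in all 11 groups, 489 (85.2%) had a mean of 1 FPKM or more in every group, 65 (11.3%) in some and 20 (3.48%) in none, of which 10 were at 0 in every library. At loci of 1000 to 5000 bp these shares were 57.2%, 27.5% and 15.3% of 12773, and over all loci 54.8%, 28.1% and 17.1%. At 5 FPKM or more in every group were 356 long loci (62.0%), against 39.6% of loci of 1000 to 5000 bp. A group mean of 100 FPKM or more in at least 1 group was reached by 21 long loci (3.66%) and by 16.2% of the shorter class.

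The share expressed in every group was higher in each longer class, with no step at the limit of 15000 bp. It was 32.7% under 1000 bp, 57.2% from 1000 to 5000 bp, 70.2% above that and under 10000 bp, and 81.6% from 10000 bp to under 15000 bp. Among long loci it was 83.1% under 20000 bp, 84.0% from 20000 bp to under 30000 bp, 90.4% from 30000 bp to under 50000 bp and 93.1% (27 of 29) at 50000 bp or more. The difference was also present among loci with like numbers of neighbours. With fewer than 20 neighbours within 250 kb, 79.5% of long loci and 53.5% of loci of 1000 to 5000 bp were expressed in every group; with 20 to 39 neighbours 92.2% and 55.1%; and with 40 or more 86.1% and 58.2%.

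**Figure D2:**
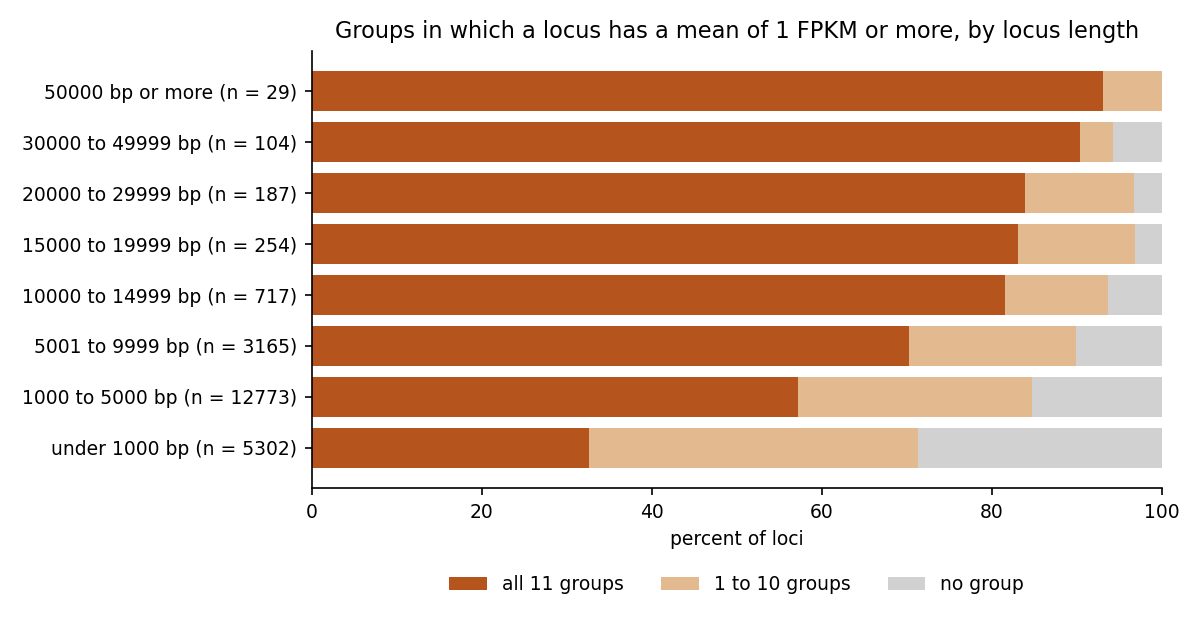
Percent of loci with a group mean of 1 FPKM or more in all 11 groups (dark), in 1 to 10 groups (light) or in none (grey), by locus length with the longest at the top and the number of loci in brackets. The dark share is 93.1% at 50000 bp or more and 32.7% under 1000 bp.

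The 65 long loci expressed in some groups only were spread over all groups. Of them, 46 reached 1 FPKM at PD, 44 at AP, 51 at SW, 36 at BW, 25 at CT and 29 at RF, and 33 in R2_RF, 34 in R4_RF, 41 in R4_CT, 28 in 5_Aza and 27 in Mock. More of them were on at PD (70.8%) than at RF (44.6%), and so were loci of 1000 to 5000 bp expressed in some groups only (63.6% and 29.6% of 3512) and all such loci (59.3% and 30.3% of 6338). At 1 FPKM or more at PD but not at RF were 27, and 10 showed the opposite. Another of the 65, chr4:8398169-8415484 (17316 bp), had a mean of 1 FPKM or more only in R2_RF and R4_CT rind. It had 11 and 12.5 FPKM in R2_RF, 0.954 and 0.621 in R4_RF and 3.17 and 3.25 in R4_CT rind. It was listed at 0 in all 6 libraries of 5_Aza and Mock flesh, and did not exceed 0.590 FPKM in any stage library.

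The 5 longest loci differed in level and in course. chr3:27270164-27367052, the longest at 96889 bp, was low throughout, from 0.303 ± 0.035 FPKM at PD to 1.55 ± 0.07 at RF (SD, n = 3 each), and had its highest level in R2_RF rind at 2.74 and 3.45 FPKM. chr4:12879625-12951706 (72082 bp) had 2.85, 3.08 and 3.35 FPKM at PD, 7.72, 7.99 and 7.94 at SW, 12.7, 12.4 and 13.1 at BW, 17.0, 16.2 and 15.1 at CT and 25.1, 25.8 and 25.6 at RF. Its replicates did not overlap between any of these 5 stages, and RF against PD gave a log2 fold change of 2.70 ± 0.05 (SE; limma adjusted p = 7.2e-15). chr8:13881744-13969501 (87758 bp) was also lowest of the replicated stages at PD, with 4.23 ± 0.15 FPKM, and highest at RF, with 16.4 ± 0.77 FPKM (SD, n = 3 each). chr4:11349872-11422663 (72792 bp) stayed between 12.1 and 16.9 FPKM over all 11 group means, and chr2:23980766-24055190 (74425 bp) between 4.37 FPKM in Mock and 9.31 in R2_RF.

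The loci nearest the length limit were set side by side. The shortest long loci, chr11:30172668-30187674 (15007 bp) and chr11:12328343-12343360 (15018 bp), ranged over the group means from 13.3 to 32.1 FPKM and from 14.8 to 39.7 FPKM. The longest loci below the limit, chr6:4517319-4532315 (14997 bp) and chr3:6500709-6515703 (14995 bp), ranged from 2.63 to 5.56 FPKM and from 2.98 to 6.23 FPKM. All 4 were at 1 FPKM or more in every group.

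Change over flesh development was frequent but small at long loci. In a limma F test over the stages, 544 of the 549 long loci tested changed (adjusted p under 0.05), where 96.5% of all 17288 loci did. Both this call and stage means that spanned 2-fold or more (log2(FPKM + 1) scale) were found at 248 (45.2%), against 69.4% of loci of 1000 to 5000 bp and 67% of all loci tested. Among loci that reached 5 FPKM at 1 of the 5 replicated stages, the median range was 0.93 (log2) for 510 long loci and 1.5 for 8684 loci of 1000 to 5000 bp. A range of 4-fold or more was found for 46 of the 510 (9.02%) and for 36.4% of the shorter class, and of 16-fold or more for 6 (1.18%) and 9.64%. The 4-fold gap was present at like levels. Between 10 and 20 FPKM, 7.30% of long loci and 33.7% of the shorter class ranged that far, and between 20 and 50 FPKM 5.26% and 29.1%. At 50 FPKM or more it was narrower, with 17.2% of 29 long loci and 32.1% of the shorter class. There the shares with 16-fold or more were close, at 10.3% and 10.9%. Loci just below the length limit were closer to long loci. From 10000 bp to under 15000 bp the median range was 0.97, and 15.4% ranged 4-fold or more. The F test call with a range of 2-fold or more was found at 50% of those tested.

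**Figure D3:**
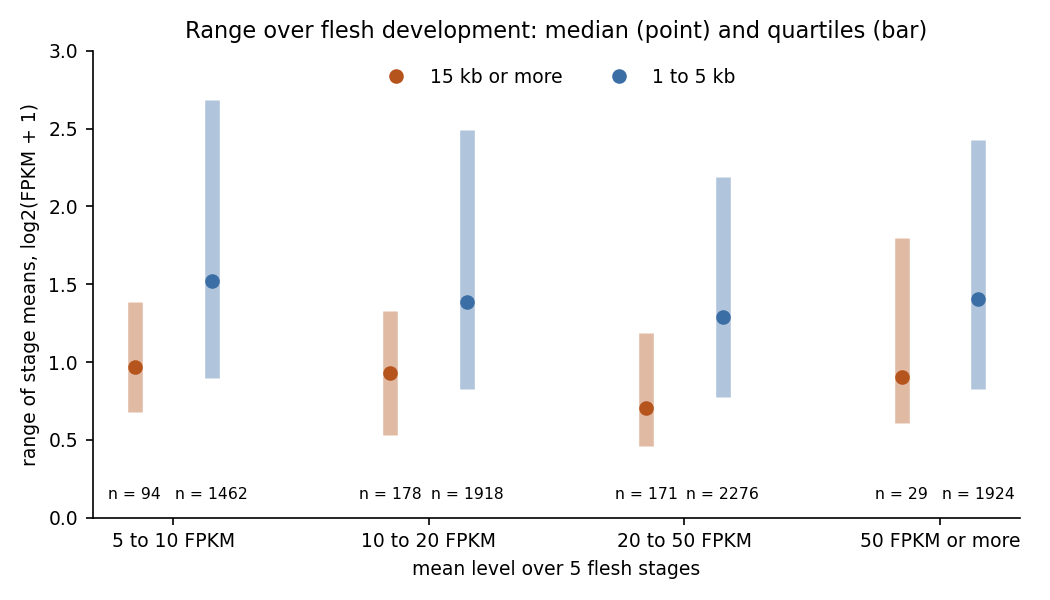
Range of the means of the 5 replicated flesh stages on the log2(FPKM + 1) scale, for long loci (brown) and loci of 1000 to 5000 bp (blue), by mean level over these stages. Points are medians, bars run from the first to the third quartile and n is the number of loci; at 10 to 20 FPKM the medians are 0.93 for long loci and 1.38 for the shorter class.

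The 248 long loci with a range of 2-fold or more were highest at RF in 81 cases (32.7%), at PD in 74 (29.8%), at SW in 63 (25.4%), at BW in 18 (7.26%) and at CT in 12 (4.84%). Of the 7022 such loci of 1000 to 5000 bp, 20.0% were highest at RF and 45.0% at PD. These counts used the 5 replicated stages and left out AP. From PD to RF over these stages, means were higher at every step in 31 of the 248 (12.5%) and lower in 26 (10.5%). In the shorter class these shares were 7.23% and 19.9%. The 46 long loci with a range of 4-fold or more were highest at PD in 15 cases, at SW in 12, at BW in 2, at CT in 5 and at RF in 12.

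Development from ovary to ripe flesh was followed in steps, with 550 of the 575 long loci passing the filter on low values. In SW against PD flesh, 289 long loci rose and 166 fell by limma's test at an adjusted p under 0.05, where 37.2% and 41% of all 17337 loci tested did. Changes of 2-fold or more were found for 58 upward and 11 downward, with 11.6% and 12.3% over all loci. The median log2 fold change was 0.16 for the long loci tested and -0.03 for all loci. chr6:15829190-15847940 rose most, with 8.52, 8.88 and 6.96 FPKM at SW against 0.182, 0.204 and 0.12 at PD (log2 fold change 2.96 ± 0.07 (SE), adjusted p = 3.1e-13), and 4.94 at a pseudocount of 0.1. chr10:29798591-29814513 followed, with 46.9, 47.1 and 46.6 FPKM at SW and 5.83, 5.83 and 5.69 at PD (2.82 ± 0.04, adjusted p = 1.8e-15). The largest falls were at chr7:25814177-25841454, with 6.16 ± 0.29 FPKM at SW and 40.9 ± 0.88 at PD, and at chr3:14695443-14716433, with 2.38 ± 0.37 and 8.05 ± 1.46 FPKM (SD, n = 3 each).

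Between BW and SW 154 long loci rose and 227 fell, where 24.8% and 46.1% of all loci did. Under median-of-ratios scaling 211 long loci rose and 184 fell, with 5162 rises and 7028 falls over all loci. The median log2 fold change of the long loci was -0.05, or 0.03 under that scaling, against -0.15 for all loci. Rises of 2-fold or more were found at 5 long loci (5.25% of all loci) and falls at 18 (10.2%). The 5 were chr8:2114359-2132810 and chr6:15829190-15847940, named by rule, and chr8:2247689-2268380, chr6:2211148-2235210 and chr9:18008218-18072456, named after their values were seen. chr8:2114359-2132810 had 63.6, 63.8 and 63.9 FPKM at BW and 22.6, 23.3 and 22.0 at SW. chr9:18008218-18072456, 64239 bp long, had 11.5, 11.4 and 12.4 FPKM at BW and 5.15, 5.25 and 5.00 at SW, and chr6:2211148-2235210 had 3.61, 3.96 and 3.90 FPKM at BW and 1.09, 1.39 and 0.822 at SW. chr6:7378564-7393947 fell most, to 4.13 ± 0.14 FPKM at BW, against 17.5 ± 0.52 at SW (log2 fold change -1.85 ± 0.05 (SE), adjusted p = 1.7e-12), followed by chr5:32969812-32986232, with 2.85 ± 0.07 and 9.36 ± 0.11 FPKM.

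In CT against BW flesh 111 long loci rose and 291 fell, where 24.8% and 46.6% of all loci did. Under median-of-ratios scaling 158 long loci rose and 231 fell, with 5263 rises and 7173 falls over all loci. Changes of 2-fold or more numbered 7 upward (5% of all loci) and 22 downward (13.4%). chr5:11097672-11116126 (18455 bp) rose most, with 132, 134 and 118 FPKM at CT against 12.2, 10.8 and 11.8 at BW (log2 fold change 3.35 ± 0.06 (SE), adjusted p = 1.9e-14). chr11:8791618-8817590 had 52.3 ± 0.73 FPKM at CT and 8.91 ± 0.27 at BW. chr10:8120060-8136012 fell to 1.11 ± 0.05 FPKM at CT, against 7.85 ± 0.67 at BW, and chr1:36089964-36120054 to 7.21 ± 0.17, against 26.5 ± 0.27 (SD, n = 3 each).

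In the last step more long loci rose than fell. In RF against CT flesh 287 long loci rose and 109 fell, where 33.3% and 28.1% of all loci did, and the median log2 fold change was 0.13 for long loci and 0.01 for all loci. By 2-fold or more 6 rose (5.24% of all loci) and 1 fell (4.08%), but at a pseudocount of 0.1 these were 16 and 7, and 2 fell without CT replicate 3. chr5:11097672-11116126 rose again, with 309, 317 and 313 FPKM at RF against 132, 134 and 118 at CT, and chr11:30500287-30515763 had 32.3 ± 0.59 FPKM at RF and 13.3 ± 0.86 at CT. The 1 fall of 2-fold or more at a pseudocount of 1 was at chr10:29798591-29814513, with 9.89, 9.77 and 9.30 FPKM at RF against 31.7, 32.2 and 30.0 at CT (log2 fold change -1.60 ± 0.04 (SE), adjusted p = 7.1e-13). The next largest fall was at chr2:29156357-29186967, with 2.15 ± 0.03 FPKM at RF and 5.03 ± 0.36 at CT (log2 fold change -0.93, and -1.19 at a pseudocount of 0.1).

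Over the whole course, RF against PD, 273 long loci rose and 225 fell, where 35.4% and 52.6% of all loci did. At 2-fold or more there were 94 rises (17.1% of the 550; 18.2% of all loci) and 82 falls (14.9%; 32.3% of all loci). In loci of 1000 to 5000 bp 17.7% rose and 35.3% fell by 2-fold or more. From 10000 bp to under 15000 bp 18.1% rose and 17.1% fell that far, close to the long loci. The median log2 fold change was 0.10 for long loci, -0.42 for loci of 1000 to 5000 bp and -0.31 for all loci. The shortest long loci went the other way: under 20000 bp 100 rose and 122 fell, with a median of -0.12. From 20000 bp to under 30000 bp 98 rose and 58 fell, from there to under 50000 bp 55 and 37, and at 50000 bp or more 20 and 8.

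The 6 long loci with a range of 16-fold or more moved in both directions. chr7:25814177-25841454 (27278 bp) had the largest range, with 41.9, 40.3 and 40.5 FPKM at PD, 30.7 at AP, 5.88, 6.45 and 6.15 at SW, 3.28, 3.38 and 2.78 at BW, 0.103, 0.145 and 0.139 at CT and 0.0583, 0.0692 and 0.0662 at RF. Its log2 fold change of RF against PD was -5.30 ± 0.06 (SE; adjusted p = 4.2e-17), and -7.96 at a pseudocount of 0.1. chr6:7378564-7393947 had 11.4, 11.5 and 11.6 FPKM at PD and 17.1, 17.4 and 18.1 at SW, and was at or below 0.2 FPKM in all libraries of CT and RF (RF against PD -3.63 ± 0.05, SE, and -6.72 at a pseudocount of 0.1). chr6:15829190-15847940, nearly silent at PD and AP (0.169 and 0.266 FPKM), had 23.4 ± 0.63 FPKM at BW and 20.7 ± 0.25 at RF. chr8:2114359-2132810 had 3.48 ± 0.13 FPKM at PD and 86.5 ± 0.87 at CT. chr5:11097672-11116126 was lowest at SW, with 10.7 ± 0.59 FPKM, and highest at RF, with 313 ± 4.1 FPKM. The sixth was chr8:2247689-2268380, given above.

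At the other end, chr10:21221914-21244803 (22890 bp) had stage means between 14.7 and 15.1 FPKM at the 5 replicated stages, the smallest range of the 510, with 10.1 FPKM in the single AP library. Its means in rind were 6.28 FPKM in R2_RF, 7.19 in R4_RF and 6.36 in R4_CT, against 12.7 FPKM in Mock flesh, and R4_CT fell against Mock (log2 fold change -0.89 ± 0.11 (SE), limma adjusted p = 3.5e-06). chr5:515890-531433 (15544 bp) had stage means between 32.5 and 34.5 FPKM, and 24.6 to 27.9 FPKM in the rind groups.

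The single library of AP was set beside PD with no test. Among loci whose PD and AP levels averaged 5 FPKM or more, 358 of 441 long loci (81.2%) were lower at AP, with a median difference of -0.24 (log2), against 53.6% and -0.04 for loci of 1000 to 5000 bp. Over all 12784 such loci these were 55.9% and -0.06. None of the 441 was lower by 2-fold and 2 were higher by 2-fold. In the shorter class 46 of 7658 were lower and 279 higher that far, and over all loci 103 and 532 of 12784.

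**Figure D4:**
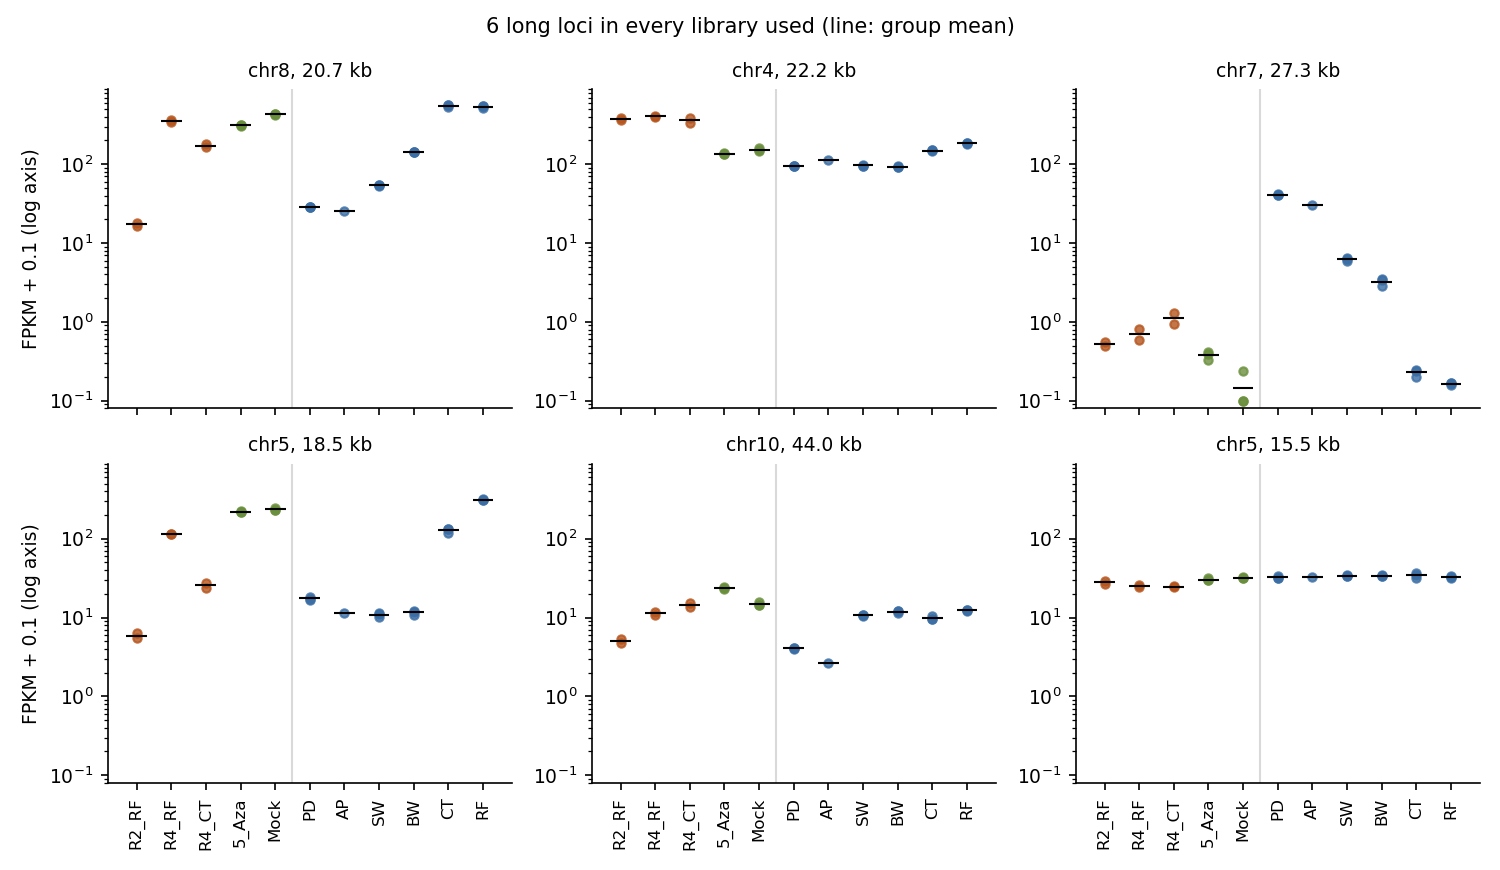
FPKM + 0.1 (log axis) of 6 long loci in each library used (points; lines are group means), with rind brown, 5_Aza and Mock green and the flesh stages blue; panels are named by chromosome and length. The chr8 and chr5 (18.5 kb) loci climb to 549.9 FPKM at CT and 313 at RF and are low in R2_RF, the chr7 locus falls to 0.0646 FPKM at RF, and the chr5 locus of 15.5 kb is nearly flat.

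Differences between 5-azacytidine-treated and Mock flesh were small at long loci. In 5_Aza against Mock flesh, 521 of the 575 long loci were tested, 96 of them rose and 29 fell by limma's test, where 29.5% and 13.3% of all 15552 loci tested did. That split reversed under median-of-ratios scaling, with 55 higher and 68 lower, while all loci had 3602 higher and 3063 lower. The counts also depended on single libraries. Without 5_Aza replicate 2, 56 rose, without Mock replicate 1, 59, and without 5_Aza replicate 3, 19 fell. Over all loci 3477 rose, 3926 rose and 1729 fell in these settings, against 4586 rises and 2064 falls with every library. The median log2 fold change was 0.07 both for the long loci and for all loci, and about 0 for both under that scaling (0.004 and 0.009). No long locus rose or fell by 2-fold or more, neither at adjusted nor at unadjusted p under 0.05 in limma, where 4.09% of all loci rose and 0.186% fell that far. In the shorter class 384 of 9044 (4.25%) rose and 17 fell by 2-fold or more. Of the 635 loci tested of 10000 bp to under 15000 bp, 7 rose and 1 fell that far. Log2 fold changes of the long loci lay between -0.79 and 0.63. Among loci with a mean of 5 to 20 FPKM, 0 of 252 long loci and 131 of 2922 loci of 1000 to 5000 bp (4.48%) passed 2-fold.

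The largest rises in 5_Aza were at chr10:25280193-25324177 (43985 bp), with 23.3, 24.6 and 22.7 FPKM in 5_Aza against 14.4, 14.4 and 15.6 FPKM in Mock (log2 fold change 0.63 ± 0.06 (SE), adjusted p = 1.1e-05). chr4:26775570-26792579 had 24.8, 24.8 and 23.9 FPKM in 5_Aza and 15.1, 15.4 and 16.7 in Mock (0.61 ± 0.06, adjusted p = 1.1e-05). The largest fall was at chr11:10576899-10596265, with 7.97, 9.77 and 9.83 FPKM in 5_Aza and 15.6, 17.2 and 17.0 in Mock (-0.79 ± 0.09, adjusted p = 2.6e-05). chr3:17896468-17919838 had 4.0 ± 0.30 FPKM in 5_Aza and 5.96 ± 0.39 in Mock (SD, n = 3 each; -0.48 ± 0.09 (SE), adjusted p = 0.002). At a pseudocount of 0.1, 2 low loci passed 2-fold upward, named after their values were seen. chr6:2211148-2235210 had 1.08, 1.29 and 1.54 FPKM in 5_Aza and 0.449, 0.635 and 0.565 in Mock. In this fit it passed the filter on low values only through 5_Aza, so its values are given with no test. chr7:461538-482447 had 1.84, 1.61 and 2.20 FPKM in 5_Aza and 1.03, 0.590 and 1.06 in Mock.

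Tissues were compared at matched ages. Mock is a treatment control and, unlike R4_CT, carries no cultivar label. The part of handling or cultivar in the changes between R4_CT and Mock was not tested. In R4_CT rind against Mock flesh, both at 20 DAP and in one number format, 175 of 536 long loci tested rose and 193 fell, where 43.3% and 34.4% of all 16859 loci tested did. The excess of falls did not hold throughout: 178 rose and 151 fell without R4_CT replicate 1, and 173 and 171 without Mock replicate 3. It was larger without R4_CT replicate 2, with 130 rises and 198 falls. In the same order, all loci had 6941 rises and 5082 falls, 7241 and 5530, and 6318 and 5635 in these settings. Under 20000 bp 90 long loci rose and 74 fell. At 2-fold or more 28 rose (17.2% of all loci) and 26 fell (10.1%), against 17.6% and 10.2% of loci of 1000 to 5000 bp. chr7:2793999-2814519 had 11.3 and 12.0 FPKM in R4_CT against 1.04, 1.11 and 1.23 in Mock (log2 fold change 2.57 ± 0.10 (SE), adjusted p = 2.4e-11). chr10:8120060-8136012 had 5.72 and 7.68 FPKM in R4_CT against 0, 0.131 and 0 in Mock, but among the libraries of this fit it passed the filter on low values only through R4_CT, so its values are given with no test. chr5:11097672-11116126 fell to 23.9 and 27.2 FPKM in R4_CT, against 229, 234 and 245 in Mock (-3.16 ± 0.07, adjusted p = 5.4e-14), and chr11:30500287-30515763 to 4.79 and 4.76 FPKM, against 35.8, 36.3 and 37.2. No R4_CT library overlapped a Mock library at these 4 loci, which was a condition of naming them. Untreated CT flesh of 20 DAP, in the other number format, had means of 0.947 FPKM at chr7:2793999-2814519 and 1.11 at chr10:8120060-8136012. At chr5:11097672-11116126 it had 127.9 FPKM and at chr11:30500287-30515763 13.3.

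Between the ages of R4 rind, R4_RF (30 DAP) against R4_CT (20 DAP), 120 long loci rose and 55 fell, where 25.6% and 27% of all loci did. The count of rises rested partly on single libraries: it was 72 without R4_CT replicate 1 and 79 without R4_RF replicate 2. Rises over all loci were 3393 and 3375 in these settings, against 4324 with every library. Changes of 2-fold or more numbered 8 upward (3.1% of all loci) and 6 downward (7.83%); the 6 became 2 without R4_CT replicate 2 and 3 without R4_RF replicate 2. chr5:11097672-11116126 had 115 and 116 FPKM in R4_RF and 23.9 and 27.2 in R4_CT, and chr11:8791618-8817590 had 116 and 113 FPKM in R4_RF and 29.0 and 30.1 in R4_CT. chr9:1363906-1380331 fell to 16.9 and 15.8 FPKM in R4_RF, against 32.1 and 37.3 in R4_CT. chr10:8120060-8136012 had 0.155 and 0.194 FPKM in R4_RF, against 5.72 and 7.68 in R4_CT, again with no test because only R4_CT carried it past the filter.

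Between the rind groups of 30 DAP most differences at long loci were under 2-fold. In R2_RF against R4_RF 138 long loci rose and 180 fell, where 31.4% and 38.4% of all loci did. Under median-of-ratios scaling 187 long loci rose and 149 fell, with 6188 rises and 5790 falls over all loci. At 2-fold or more 8 rose (9.37% of all loci) and 18 fell (11.1%); without R2_RF replicate 2, 3 rose. chr4:8398169-8415484, given above, rose most (log2 fold change 2.84 ± 0.14 (SE), adjusted p = 3.6e-10), followed by chr9:19724503-19742394, with 11.2 and 12.1 FPKM in R2_RF against 4.15 and 4.22 in R4_RF. chr8:2247689-2268380 fell to 16.4 and 17.8 FPKM in R2_RF, against 339.5 and 364 in R4_RF (-4.28 ± 0.06, adjusted p = 1.4e-15), and chr5:11097672-11116126 to 5.34 and 6.19 FPKM, against 115 and 116 (-4.11 ± 0.08, adjusted p = 1.8e-14). In both, each R4_RF library was many times the level of each R2_RF library.

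In R4_RF rind against RF flesh, both of 30 DAP, 149 of 539 long loci tested rose and 211 fell, where 45.2% and 27.9% of all 16945 loci tested did. Under 20000 bp 77 rose and 74 fell. At 2-fold or more 22 rose (18.1% of all loci) and 17 fell (6.06%). This comparison crosses the number formats of the files, and Mock and CT flesh, which share tissue and age, differed by 2-fold or more at 31 of the 539. Of the 22 loci higher in R4_RF, 21 (95.5%) had a higher mean in Mock than in CT, 7 of them by 2-fold or more, against 53.2% of the 539. Of the 17 lower in R4_RF, 12 (70.6%) had a lower mean in Mock than in CT, 5 by 2-fold or more, against 46.8% of the 539. Another 2 of the 17 were higher in Mock than in CT by 2-fold or more, and without loci that differed so in either direction the 17 became 10. Mock is also a treatment control and, unlike CT, carries no cultivar label. The parts of format, handling and cultivar in the gap between Mock and CT cannot be told apart. The part of the format in the changes of R4_RF against RF was not tested.

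Both extremes of that comparison had such a gap or spread. chr3:25909995-25925809 had 17.6 and 18.0 FPKM in R4_RF against 3.75, 2.68 and 0.928 in RF flesh, and 11.9 FPKM in Mock against 2.50 in CT flesh; it lies 43 bp from its neighbour. chr3:17600687-17643900 had 0.658 and 0.747 FPKM in R4_RF against 6.59, 6.87 and 7.27 in RF flesh, and 0.505 FPKM in Mock against 6.55 in CT flesh. chr7:2793999-2814519 had 8.0 and 8.75 FPKM in R4_RF against 0.891, 0.741 and 0.897 in RF flesh, with 1.13 FPKM in Mock and 0.947 in CT flesh, so here both flesh sets were low. chr11:30500287-30515763 had 7.84 and 8.46 FPKM in R4_RF against 32.9, 32.3 and 31.7 in RF flesh, with 36.5 FPKM in Mock and 13.3 in CT.

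The change between 20 and 30 DAP was also compared between rind and flesh, as the log2 fold change of R4_RF against R4_CT minus that of RF against CT. This interaction, added after the data were seen, was higher in rind at 74 of 539 long loci and lower at 153 (limma, adjusted p under 0.05), where 22.5% and 30.3% of all loci tested were. At 2-fold or more the 9 higher and 10 lower long loci stood beside 5.33% and 10.2% of all loci. chr11:8791618-8817590 had the largest positive value among the named loci and chr10:8120060-8136012 the largest negative one. The first had 116 and 113 FPKM in R4_RF and 29.0 and 30.1 in R4_CT rind, and 57.9, 56.0 and 59.8 FPKM in RF and 52.3, 52.9 and 51.5 in CT flesh.

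**Figure D5:**
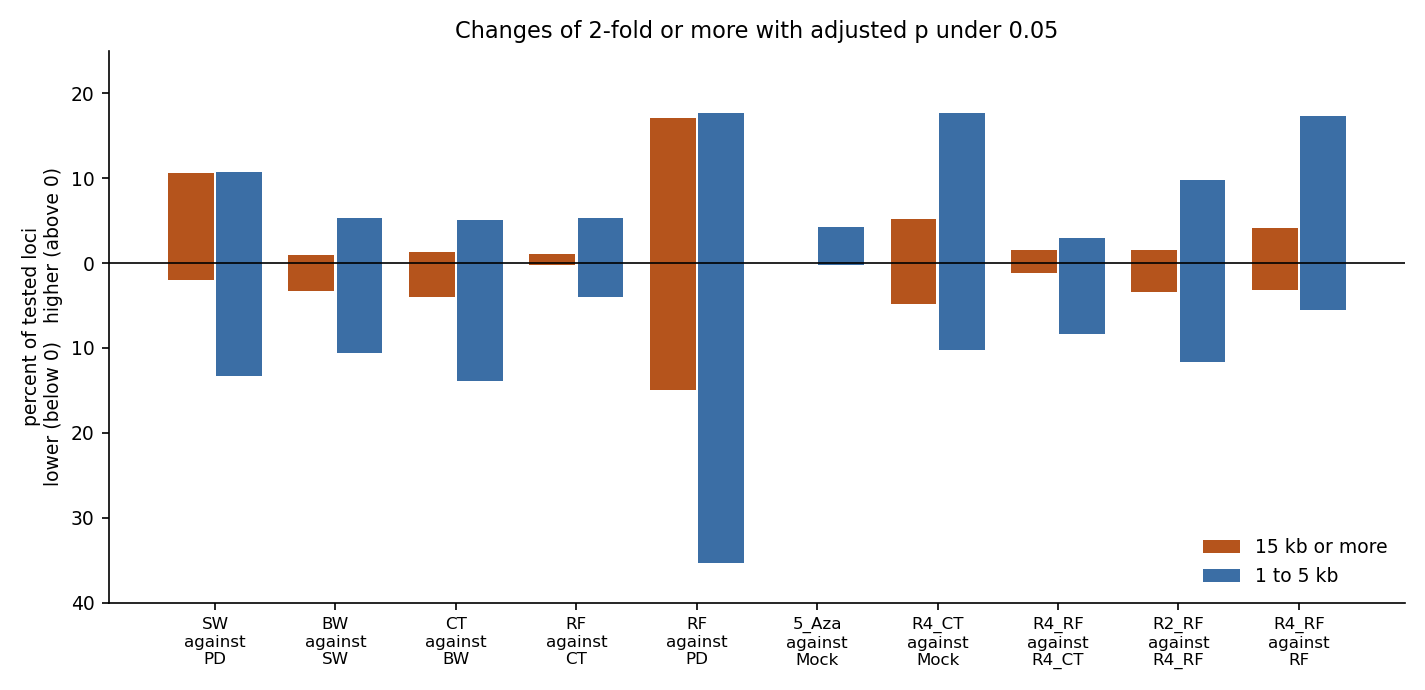
Percent of the tested loci that rose (above 0) or fell (below 0) by 2-fold or more on the log2(FPKM + 1) scale with limma adjusted p under 0.05, for long loci (brown) and loci of 1000 to 5000 bp (blue) in each comparison. The share of long loci is 0 in both directions for 5_Aza against Mock and 17.1% upward and 14.9% downward for RF against PD.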

How the data were processed

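RNA-seq values of 30 fruit libraries were used as deposited, in FPKM per locus, per the file headers. Trimming and mapping tools named in the submitters' processing notes are fastp, HISAT2 and SAMtools 1.5. Neither a quantifier nor an annotation is given in the sources used here. Stage files have 6 significant digits and the 12 other files 6 decimals. Groups and replicate numbers came from the titles and ages from the age label.

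In PD replicate 3, 11643 values were moved by 1 row (correlation with PD replicate 1 0.119 before, 0.993 after). AP replicates 1 and 2 did not follow the listed loci (highest correlation with a library of another group 0.0072 and 0.0077) and were left out. In AP replicate 3 loci were matched after adding 1 to their start, with 5 loci repeated and 15 lacking. Blocks of 50 rows correlating under 0.8 with the other libraries of their group were left out. AP replicate 3, alone in its group, was set against the PD libraries instead. This left out 1 block each in AP replicate 3 and CT replicate 1. The block of CT replicate 1 held 1 long locus, whose CT mean then has 2 libraries.

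Fold changes on log2(FPKM + 1) came from limma 3.58.1 (R 4.3.3), with a trend and robust moderation of the variances. A locus entered a fit where it reached 1 FPKM in 3 libraries, or in 2 for fits with rind. A fold change on this scale understates changes of low loci. The Benjamini-Hochberg adjustment ran over all loci of a comparison. Fits took the 16 usable stage libraries (10 residual degrees of freedom), the 6 libraries of 5_Aza and Mock (4), the 9 of rind and Mock (5), and the 12 of rind, CT and RF (7). Comparisons within a fit share libraries. The tests were tried on simulated data in which few loci changed, unlike these data, and no support is drawn from that trial.

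The members, comparisons and rules were chosen with earlier results of these data known. Named loci are the 5 longest, the 5 highest, up to 2 rises and 2 falls per comparison (largest change, adjusted p under 0.05, replicates not overlapping, 5 FPKM or more in the higher group), the 4 at the length limit and the 4 with the largest and smallest stage range. Alternatives were a pseudocount of 0.1, no filter, median-of-ratios scaling, a replicate block, limma without trend and robust, each replicate left out, and other length and FPKM limits.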

Additional observations from a re-analysis of the deposited data

Results flagged for a closer look

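At 7 of the named long loci the change between 20 and 30 DAP differed between tissues: the log2 change of R4_RF against R4_CT rind minus that of RF against CT flesh was itself tested with a limma interaction term, which crosses the number formats of the files. These loci were named for large steps in one of the tissues, and the interaction subtracts one step from the other, so the choice bears on its size. It was called in 1 direction or the other at 74 and 153 of 539 long loci, and at 22.5% and 30.3% of all loci tested. At chr11:8791618-8817590 it was 1.77 ± 0.08 (SE; adjusted p = 1.1e-08), with 114 FPKM in R4_RF and 29.5 in R4_CT rind, and 57.9 in RF and 52.3 in CT flesh. chr10:29798591-29814513 had 1.44 ± 0.09 (adjusted p = 2.1e-07), with 25.6 and 28.8 FPKM in R4_RF and R4_CT rind and 9.65 and 31.3 in RF and CT flesh. chr5:11097672-11116126 had 0.85 ± 0.10 (adjusted p = 4.3e-05), with 115 and 25.6 FPKM in R4_RF and R4_CT and 313 and 127.9 in RF and CT. chr2:29156357-29186967 had 0.84 ± 0.17 (adjusted p = 0.0017), with 3.57 and 3.88 FPKM in R4_RF and R4_CT and 2.15 and 5.03 in RF and CT. Lower in rind was the step of chr10:8120060-8136012, at -2.11 ± 0.20 (adjusted p = 5.4e-06), with 0.174 and 6.70 FPKM in R4_RF and R4_CT and 0.395 and 1.11 in RF and CT. chr9:1363906-1380331 had -0.77 ± 0.11 (adjusted p = 0.00017), with 16.4 and 34.7 FPKM in R4_RF and R4_CT and 16.7 and 20.3 in RF and CT. chr11:30500287-30515763 had -0.56 ± 0.12 (adjusted p = 0.0029), with 8.15 and 4.78 FPKM in R4_RF and R4_CT and 32.3 and 13.3 in RF and CT.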

How the results depend on the processing

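The 40 fold changes named as the largest of each comparison kept their sign and their call in each of 412 values under other settings. They were chosen as large, called changes with replicates that did not overlap, so this adds little support. The 40 include both of chr10:8120060-8136012 that carry no test, and their calls carry no weight. Other printed fold changes were not recomputed. Median-of-ratios scaling turned the 5_Aza split to 55 higher and 68 lower (96 and 29 as deposited). Over all loci that split was 3602 and 3063 (4586 and 2064 as deposited). The share of long loci expressed in every group was 88.7% at 0.5 FPKM and 62.0% at 5 FPKM, and the mean class difference in level, 0.82 ± 0.29 (log2, SD over 28 libraries), was 0.31 among loci at 1 FPKM or more in at least 1 library. At AP that difference was -0.09 for loci of 20000 bp or more. Leaving out 1 replicate at a time gave 56 to 106 rises and 19 to 25 falls in 5_Aza against Mock, 72 to 125 rises in R4_RF against R4_CT, and in every other count of long loci past adjusted p 0.05 in 1 direction a value within 1.5 times the full count. Without CT replicate 3, 2 long loci fell by 2-fold or more in RF against CT (1 with it). With a pseudocount of 0.1, 2-fold counts of long loci were 20 falls in SW against PD (11 at a pseudocount of 1), 33 in BW against SW (18), 42 in CT against BW (22), 16 rises and 7 falls in RF against CT (6 and 1), 10 falls in R4_RF against R4_CT (6), 14 rises in R2_RF against R4_RF (8), and 19 lower interaction values (10).

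Replicate numbers were not shown to pair flesh libraries: in no comparison with 3 pairs were all correlations of same-numbered deviations over 0.1. Between rind groups the correlation was 0.207 for R4_RF against R4_CT and 0.253 for R2_RF against R4_RF. With 2 libraries per group both pairs give the same value, so pairing of rind libraries was not settled. With the replicate number as a block, 129 long loci rose and 63 fell in R4_RF against R4_CT (120 and 55 without it). In R2_RF against R4_RF these were 148 and 192 (138 and 180 without it). In 5_Aza against Mock 75 rose and 22 fell with the block, and in R4_CT against Mock 179 and 177 (175 and 193 without it). No count of long loci past adjusted p 0.05 moved by over 1.5 times. No loci overlap, so leaving out overlapping loci was not run. Unknown read depth limits statements on low loci, and groups of 2 libraries borrow the spread of the others in their fit.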

Other observations

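Levels within the longest run of adjacent long loci differed widely. Of the 575, 59 had another long locus as their direct neighbour, in 27 runs, and the longest run, of 4, lay at chr3:27146669-27459813. Its first locus (25849 bp) had group means from 34.8 FPKM in R2_RF to 115 at BW and its second (57302 bp) from 27.5 FPKM in 5_Aza to 44.4 at RF. The third, the longest locus of all, stayed between 0.233 and 3.10 FPKM and the fourth (70269 bp) between 0.401 FPKM at PD and 4.35 at CT. This run was singled out after its values were seen.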
